A study of Callithrix jacchus with 3 samples.

Results

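RNAs of 29 and 30 nt, the main piRNA lengths of the marmoset testis, were compared between MARWI immunoprecipitate and total small RNA. The sequences were taken by length alone, 29 or 30 nt, from the deposited lists of distinct small RNA sequences and their read counts. They numbered 3228389 of the 6912324 sequences of MARWI-IP and 973848 of the 2668455 sequences of total small RNA, and 3697439 of 8528720 when the lists were merged. Both libraries came from testis of wild-type common marmosets (Callithrix jacchus), a New World monkey. MARWI-IP was RNA recovered from testis lysate by immunoprecipitation of MARWI, a marmoset PIWI protein whose mouse counterpart is MIWI. Its labels give 2 replicates and ages of 41 and 51 months for 1 column of counts. Total small RNA was a gel-purified size fraction labelled with an age of 41 months. No control immunoprecipitation was analysed here, and the 2 libraries differ in age label and in the gel step as well as in the immunoprecipitation. Those differences and the immunoprecipitation cannot be told apart in any comparison here.

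PIWI proteins of the male germ line carry piRNAs, small RNAs that guide them to matching transcripts and transposons. Most piRNAs are cut from long single-stranded precursors, begin with uridine (U), and have a 3′ end that is trimmed to the length the PIWI protein covers and is then methylated. Partners made by reciprocal cleavage, the ping-pong cycle, tend to carry A at base 10. In the mouse, MIWI is a PIWI protein of late meiotic cells and round spermatids.

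MARWI-IP held 72547472 reads of 29 and 30 nt, 65.8% of its reads of 24 to 33 nt, and total small RNA held 6933587, 54.2% of its reads of that range. All shares below are shares of these 29 and 30 nt reads. The 2 lengths were about equally frequent, with 51.2% of 29 nt and 48.8% of 30 nt in MARWI-IP, and 50.8% of 29 nt and 49.2% of 30 nt in total small RNA. With 1 column per library there is no replicate error and no test. Intervals are exact (Clopper-Pearson) 95% intervals that cover counting error only and take every read as independent. The reads carry no molecular identifiers, so repeated reads of 1 molecule are counted separately and the intervals may be too narrow. For base shares the intervals were at most 0.0114 percentage points on either side in MARWI-IP against 0.0363 in total small RNA.

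The sequences that led each library at these lengths are shown first, because they hold a large part of the reads compared. Capitals mark the first base, base 10 and the last base, and T in a read stands for U in the RNA. They are 4 of the 5 most abundant sequences of MARWI-IP, then 2 further ones from the 5 most abundant of total small RNA.

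MARWI-IP rank 1: TcccacatgGtctagcggttaggattccT
MARWI-IP rank 3: TtagattgtAaaaatgtgtgcacaaccatG
MARWI-IP rank 4: TcccatatgGtctagcggttaggattccT
MARWI-IP rank 5: TtgatggtaAttggaagagcatcttgggT
total rank 2: TcttcattgAgtctgaagacactccaagA
total rank 4: AacgtggaaTtctgggcacgcagctcatcC

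MARWI-IP ranks 1 and 4 have the first bases of human tRNA-Glu-TTC, a name given from knowledge of that tRNA and not from an annotation, and differ from each other at 1 base. The remaining 4 are not named here.

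TcccacatgGtctagcggttaggattccT had 2177351 reads in MARWI-IP, 3.0% of the library, against 45392 reads, 0.655%, in total small RNA. Its share was 4.58 times as high in MARWI-IP (4.54 to 4.63). TcccatatgGtctagcggttaggattccT had 1012540 MARWI-IP reads and 18051 total reads, a ratio of 5.36 (5.28 to 5.44). Both tRNA-Glu-TTC forms thus lay above 4-fold. Fragments of other tRNAs were not identified here, so these 2 forms do not stand for tRNA fragments as a class. Rank 6 of total small RNA, which begins with G and is not named here, lay far the other way. It had 6585 MARWI-IP reads and 35630 total reads, a ratio of 0.0177 (0.0172 to 0.0181).

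TtagattgtAaaaatgtgtgcacaaccatG, the most abundant 29 or 30 nt sequence of total small RNA, differed less between the libraries. It had 1072903 MARWI-IP reads, 1.48%, against 77470 total reads, 1.12%, a ratio of 1.32 (1.31 to 1.33). TtgatggtaAttggaagagcatcttgggT stood far apart, with 729827 MARWI-IP reads against 8716 total reads. It ranked 5 in MARWI-IP against 34 in total small RNA, at a ratio of 8.0 (7.84 to 8.17). TcttcattgAgtctgaagacactccaagA went the other way, with 377385 MARWI-IP reads, 0.520%, against 60032 total reads, 0.866%, a ratio of 0.601 (0.596 to 0.606). AacgtggaaTtctgggcacgcagctcatcC, which begins with A, had 396446 reads in MARWI-IP against 41946 in total small RNA, and its ratio of 0.903 (0.894 to 0.912) was close to 1.

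Among the 10 most abundant sequences of each library, 7 were the same. Of the 20 most abundant of each, 19 could be given here. In the MARWI-IP list 18 of 19 began with U, 16 had a higher share in MARWI-IP, and the ratios ran from 0.601 to 8.0 with a median of 2.07. In the total list 17 of 19 began with U, 10 had a higher share in MARWI-IP, and the ratios ran from 0.0174 to 5.36 with a median of 1.04. A list taken from one library favours that library, so these medians are descriptions of the lists.

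Most reads at these lengths began with U in both libraries, slightly more of them in MARWI-IP. U was the first base of 90.9% of MARWI-IP and 87.8% of total reads. A was first in 3.82% of MARWI-IP and 4.57% of total reads, C in 3.20% of MARWI-IP and 4.22% of total reads, and G in 2.09% of MARWI-IP and 3.39% of total reads. The U1 excess in MARWI-IP was 3.07 points, and 2.05 points without the 13 sequences that were among the 10 most abundant of either library. It was -1.14 points when each distinct sequence was counted once, with 74.98% in MARWI-IP against 76.1% in total small RNA. Since MARWI-IP was read more deeply, its distinct sequences were also computed for 6933587 reads, the depth of the total library. MARWI-IP would then have 687285 distinct sequences, against 973848 in total small RNA, and 77.4% of them would begin with U, a difference of 1.28 points.

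Base 2 and base 5 differed more than base 1, and for G at base 2 and for A and G at base 5 this held across the library. G at base 2 was 20.04% in MARWI-IP against 25.1% in total small RNA. The pair UG at the start accounted for most of it, at 19.2% in MARWI-IP against 23.6% in total small RNA, while UC began 24.3% of MARWI-IP and 20.6% of total reads. At base 5, A was 44.5% in MARWI-IP against 38.7% in total small RNA, and G was in 9.73% of MARWI-IP and 15.1% of total reads. Base 5 had the largest distance of the 29 positions, 8.13 points of reads that would have to change base.

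With all reads, bases 20, 25, 8, 21 and 14 were further apart than base 2, at 6.23, 5.98, 5.62, 5.19 and 5.17 points against 5.02. Base 1, at 3.07 points, was among the positions that differed least. Without the 1487 sequences that were among the 1000 most abundant of either library, which held 42.7% of MARWI-IP and 33.2% of total reads, G at base 2 was 23.0% in MARWI-IP against 27.5% in total small RNA. A at base 5 was in 40.1% of MARWI-IP and 35.8% of total reads, and G at base 5 in 12.6% of MARWI-IP and 17.3% of total reads. The median distance over the 29 positions was then 1.66 points, against 4.51 with all reads, and base 5 was the highest, at 5.08 points, followed by base 2 at 4.72 and base 4 at 4.40. Counted over distinct sequences, G at base 5 was 15.4% in MARWI-IP against 18.5% in total small RNA. That share was not computed at equal depth, so the deeper reading of MARWI-IP may enter it.

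**Figure D1:**
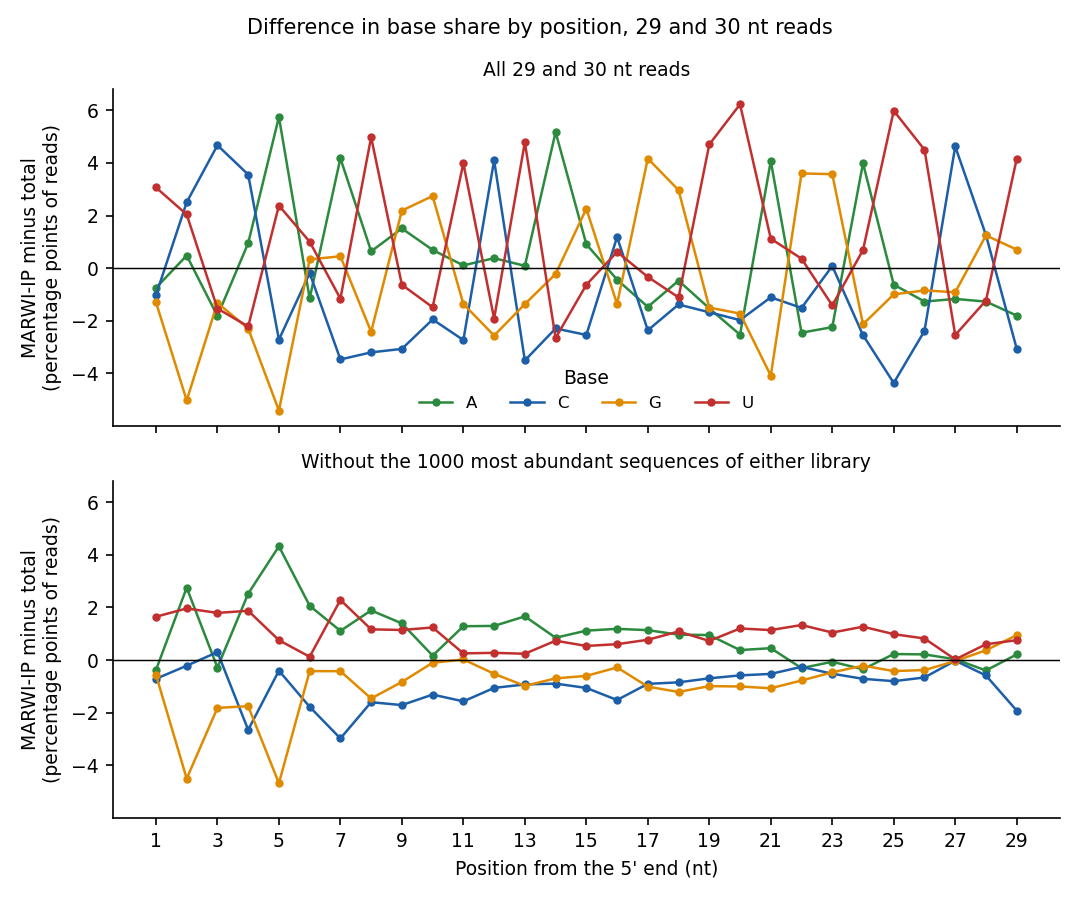
Share of each base in MARWI-IP minus that in total small RNA, in percentage points of 29 and 30 nt reads, by position from the 5′ end; each line is 1 base, above for all reads and below without the 1487 sequences among the 1000 most abundant of either library. With all reads U at bases 20 and 25 (6.23 and 5.98 points) is furthest from 0, and without the leading sequences G at base 5 (-4.68 points), G at base 2 (-4.50 points) and A at base 5 (4.32 points) are.

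At bases 8, 20 and 25 the difference was smaller without the most abundant sequences, while the distance at base 6 was 1.34 points with all reads and 1.81 without the 13 leading sequences. U at base 8 was 39.9% in MARWI-IP against 34.9% in total small RNA, but 33.9% of MARWI-IP and 32.6% of total reads without the 13 leading sequences. U at base 20 was in 35.4% of MARWI-IP and 29.2% of total reads, and without the 13 in 31.5% of MARWI-IP and 28.9% of total reads. U at base 25 was in 34.6% of MARWI-IP and 28.6% of total reads, and without the 13 in 28.6% of MARWI-IP and 26.5% of total reads. Both tRNA-Glu-TTC forms printed above have U at bases 8, 20 and 25. They also have C at base 2 and A at base 5. The difference for A at base 5 was 5.75 points with all reads and 4.44 without the 13, and that for C at base 2 was 2.50 and -0.430.

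A at base 10 was as frequent in MARWI-IP as in total small RNA to within 1 point, 32.5% of MARWI-IP and 31.8% of total reads. The direction depended on the length, with 30.1% of MARWI-IP and 30.6% of total reads at 29 nt, and 35.0% of MARWI-IP and 33.1% of total reads at 30 nt. Reads without a first U had it more often in both libraries. They had A at base 10 in 40.5% of MARWI-IP and 39.2% of total reads, while the reads that began with U had it in 31.7% of MARWI-IP and 30.8% of total reads.

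The last bases showed a pattern shared by the libraries, and a difference between them. A was rare at the next-to-last base, at 10.4% of MARWI-IP and 11.7% of total reads, and G was common there, at 37.9% of MARWI-IP and 37.2% of total reads. At the third base from the end A was the commonest base, with 31.4% of MARWI-IP and 33.4% of total reads. This held at both lengths. At 29 nt, A was next to last in 11.02% of MARWI-IP and 12.4% of total reads, and at 30 nt in 9.66% of MARWI-IP and 11.1% of total reads. Next-to-last A was rarer in abundant sequences, at 8.40% of MARWI-IP and 9.97% of total reads at ranks 101 to 1000, and at 15.8% of MARWI-IP and 15.8% of total reads below rank 100000.

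The last base itself was C less often in MARWI-IP, 28.7% against 32.5% in total small RNA, and U more often, 31.1% against 27.2%. The lower share of C was also seen without the 1487 leading sequences, with 27.0% in MARWI-IP against 30.7% in total small RNA. Over distinct sequences C was last in 24.8% of MARWI-IP and 29.98% of total sequences, which was not computed at equal depth. The higher share of last U rested mainly on 29 nt reads and on leading sequences. It was 35.5% in MARWI-IP against 28.4% in total small RNA at 29 nt but 26.4% of MARWI-IP and 25.9% of total reads at 30 nt. Without the 13 leading sequences it was 28.7% of MARWI-IP and 27.5% of total reads over both lengths. Among the 8 sequences of 29 nt given from the 20 most abundant of MARWI-IP, ranks 1, 4 and 5 end in U. Ranks 6, 12 and 18 end in C, and ranks 9 and 20 in A.

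**Figure D2:**
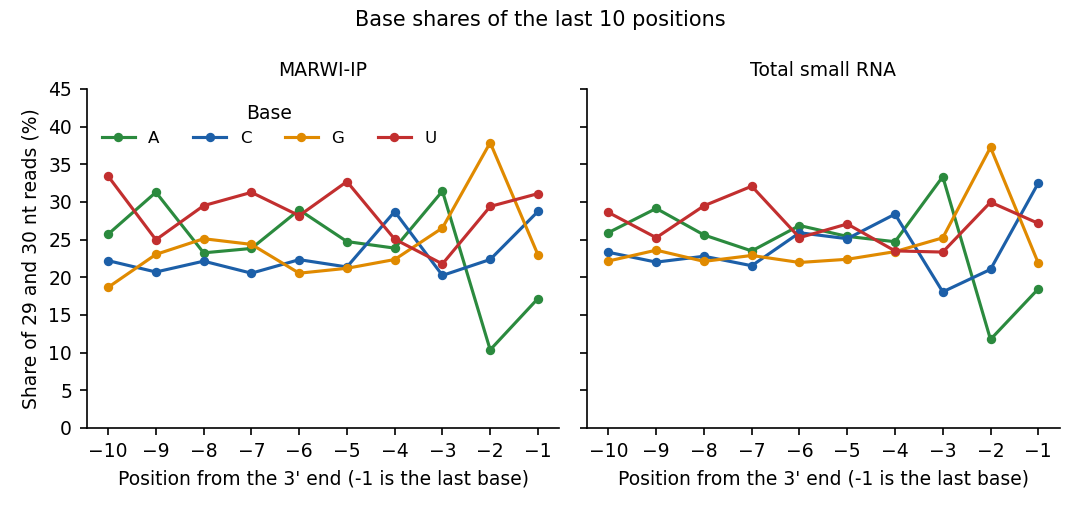
Base shares of the last 10 positions of 29 and 30 nt reads, in percent of reads, in MARWI-IP (left) and total small RNA (right), with -1 as the last base. In both panels A drops at the next-to-last base, to 10.4% in MARWI-IP against 11.7% in total small RNA, where G is at 37.9% in MARWI-IP against 37.2% in total small RNA.

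Many RNAs ended at both lengths, and the choice between the ends was much alike in the 2 libraries. Reads were grouped by their first 29 nt, and the share of 30 nt reads was taken in each group with 100 or more reads. The median share was 49.5% over 49816 groups in MARWI-IP against 49.5% over 9083 in total small RNA. Groups were spread widely around it, with quartiles of 15.8% and 80.0% in MARWI-IP and 14.8% and 81.5% in total small RNA. In the 8293 groups with 100 reads in each library the medians were 49.3% in MARWI-IP against 50% in total small RNA, and Spearman's rho between the libraries was 0.894. In 6002 of them (72.4%) the shares lay within 10 points of each other.

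TtagattgtAaaaatgtgtgcacaaccatG was read at 30 nt in 92.8% of its reads in MARWI-IP against 92.8% in total small RNA. TcttcattgAgtctgaagacactccaagA was read at 30 nt in 5.85% of its MARWI-IP and 2.17% of its total reads, and TcccacatgGtctagcggttaggattccT in 12.3% of its MARWI-IP and 9.98% of its total reads.

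The choice went with the bases at the end. Where base 29 was A, the median share of the 30 nt form was 24.5% in MARWI-IP against 23.4% in total small RNA. Where it was G, the median was 65.3% in MARWI-IP against 68.9% in total small RNA. Where base 30 was C, it was 78.8% in MARWI-IP against 80.9% in total small RNA, and where base 30 was A, 29.9% in MARWI-IP against 27.8% in total small RNA. The base at position 30 is known only where a 30 nt read exists, and 858 groups in MARWI-IP against 165 in total small RNA had none. Where base 29 was C, the median was 48.2% over 11575 groups in MARWI-IP against 38.6% over 2332 in total small RNA. Counted by reads, the 30 nt share there was 44.1% in MARWI-IP against 40.9% in total small RNA. Where base 29 was U, the medians were 51.7% in MARWI-IP against 51.9% in total small RNA, and by reads the shares were 44.5% in MARWI-IP against 50.8% in total small RNA.

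**Figure D3:**
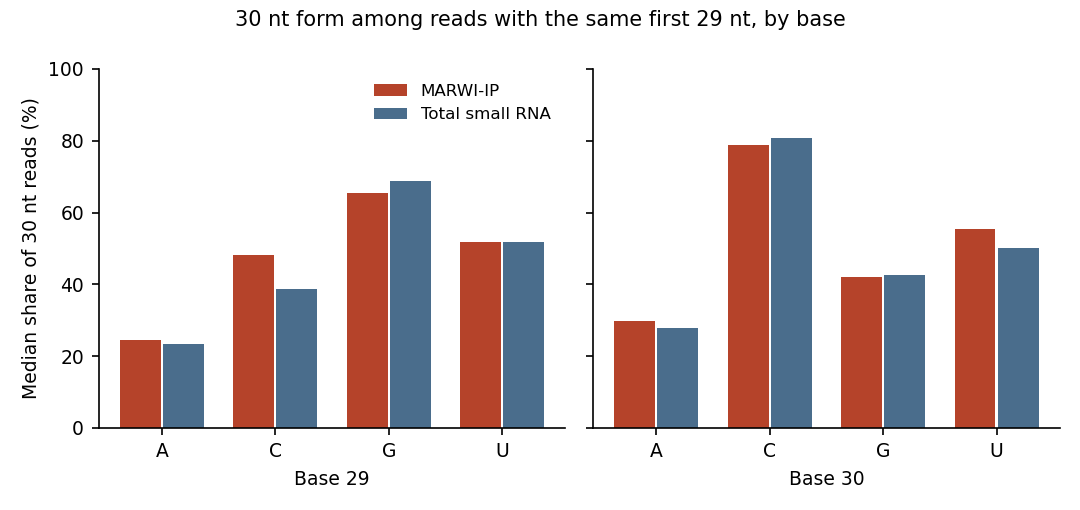
Median share of 30 nt reads, in percent, over groups of reads with the same first 29 nt and 100 or more reads, by the base at position 29 (left) and 30 (right), with bars for MARWI-IP and total small RNA. In both libraries the 30 nt form is lowest where base 29 is A (24.5% in MARWI-IP, 23.4% in total small RNA) and highest where base 30 is C (78.8% in MARWI-IP, 80.9% in total small RNA).

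Reads were concentrated in fewer sequences in MARWI-IP. The most abundant sequence held 3.0% of MARWI-IP and 1.12% of total reads. The 10 most abundant held 11.9% of MARWI-IP and 5.86% of total reads, the 100 most abundant 24.6% of MARWI-IP and 15.3% of total reads, and the 1000 most abundant 41.2% of MARWI-IP and 30.7% of total reads. In MARWI-IP 2357 sequences held 50% of the reads, and in total small RNA 6110 did. The effective number of sequences, the number of equally abundant ones that would have the same Shannon entropy, was 21716 in MARWI-IP against 51033 in total small RNA. Grouping by the first 20 nt gave 26.96% of MARWI-IP and 17.2% of total reads for the 100 most abundant starts.

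The excess in MARWI-IP was smaller without the top of the lists. With the 13 leading sequences removed, the next 100 held 14.4% of MARWI-IP and 9.97% of total reads. At the rare end, where the libraries also differ in depth, sequences read once were 65.0% of the distinct sequences of MARWI-IP and 69.5% of those of total small RNA, and they held 2.89% of MARWI-IP and 9.76% of total reads.

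**Figure D4:**
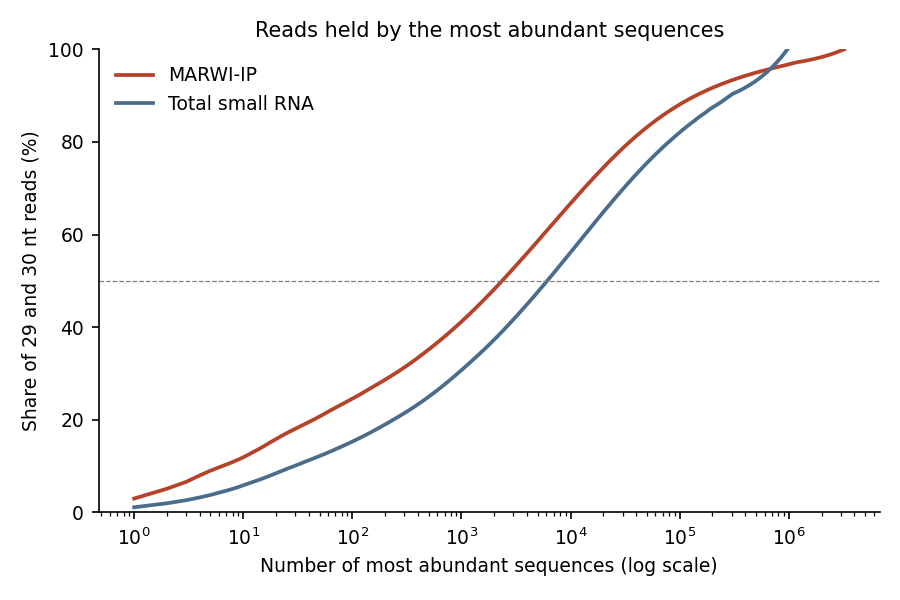
Cumulative share of 29 and 30 nt reads, in percent, held by the most abundant sequences, against their number on a log axis, for MARWI-IP and total small RNA; the dashed line marks 50%. MARWI-IP reaches the line at 2357 sequences and total small RNA at 6110.

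The base shares also changed along the list. U was first in 95.4% of MARWI-IP reads of ranks 1 to 10 and 80.9% of total reads of those ranks, where the total list includes 1 sequence beginning with A and 1 with G. At ranks 1001 to 10000 U was first in 94.5% of MARWI-IP and 93.4% of total reads, and below rank 100000 in 76.7% of MARWI-IP and 76.5% of total reads. The libraries thus lay close together in U1 within these classes beyond the first 1000 ranks. The classes hold unlike shares of reads, with 11.9% of MARWI-IP and 18.0% of total reads below rank 100000. Without the 1487 leading sequences as a whole, U was first in 88.8% of MARWI-IP and 87.2% of total reads. A at base 5 was higher in MARWI-IP in each of the 6 classes of rank, with 43.2% of MARWI-IP and 39.2% of total reads at ranks 1001 to 10000, and 36.4% of MARWI-IP and 33.7% of total reads below rank 100000.

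The libraries had most of their reads in common. Sequences found in both numbered 504798, which was 15.6% of the MARWI-IP sequences and 51.8% of the total sequences. They held 92.4% of MARWI-IP and 92.0% of total reads. Of the sequences found in MARWI-IP alone, 73.5% were read once, and of those found in total small RNA alone, 92.1%. The most abundant MARWI-IP sequence with no read in total small RNA had 6161 reads, and the most abundant total sequence with no read in MARWI-IP had 1517.

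Shared sequences were ranked only partly alike. Spearman's rho was 0.553 over the 62739 sequences with 10 or more reads in each library. It was 0.434 over the 7828 with 100 or more and 0.453 over the 442 with 1000 or more. These points share 2 libraries, and the rho of a set depends on the range of abundance the minimum leaves. At 29 nt it was 0.555 and at 30 nt 0.552, with 32261 and 30478 sequences.

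Counting error, with every read taken as independent, was small beside the spread of the ratios. Over the 442 sequences with 1000 or more reads in each, the log2 ratio of MARWI-IP to total share had an SD of 1.65, and the median SD expected from counting was 0.0391. Of these 442, 229 (51.8%) had shares that differed by no more than a factor of 2. The log2 ratios had a long lower tail, with 5% of sequences at or below -3.66 and 5% at or above 1.61. Because MARWI-IP was read more deeply, 1000 reads are a smaller share there than in total small RNA. The minimum thus lets in low ratios more readily than high ones, and the shape of the tail cannot be read apart from it. Of the shared top lists, 55 of 100 and 513 of 1000 sequences were in both.

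The ratios also went with base 5 and base 2. Over the 62739 sequences the median log2 ratio was -0.55. It was -0.33 over the 22769 with A at base 5 and -0.97 over the 10765 with G there. It was -0.84 over the 17061 with G at base 2 and -0.34 over the 16625 with A there. By last base it was -0.76 for C and between -0.48 and -0.46 for the other bases.

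**Figure D5:**
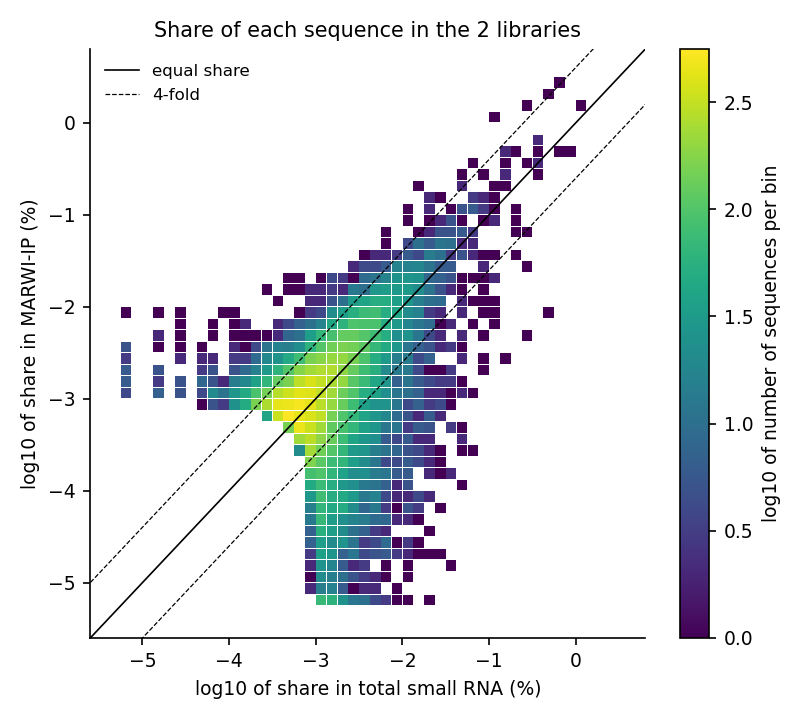
Share of each sequence in MARWI-IP against its share in total small RNA, in percent on log10 axes, as numbers of sequences per square bin, for the 22987 sequences of 29 and 30 nt with a mean share of 0.0005% or more; the solid line is equality and the dashed lines 4-fold. Shares below that of 0.5 reads of the total library are drawn at that limit, and of the sequences at 0.01% or more, 68 lie above the upper dashed line and 116 below the lower.

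Among abundant sequences, those with a mean share of 0.01% or more over the 2 libraries, 68 of 843 (8.07%) were 4-fold or more higher in MARWI-IP and 116 (13.8%) were 4-fold or more lower. Among the 103 sequences with a mean share of 0.05% or more the balance turned, with 15.5% higher and 10.7% lower. The higher 68 made up 11.2% of MARWI-IP and 2.17% of total reads, and the lower 116 made up 0.434% of MARWI-IP and 5.67% of total reads. Of the higher 68, 64 (94.1%) began with U, against 95 (81.9%) of the lower 116 and 609 (92.4%) of the 659 in between. G was at base 5 in 3 of the higher 68 (4.41%), in 18 of the lower 116 (15.5%) and in 81 of the 659 (12.3%). A at base 5 did not separate the classes in the same way, with 30 of the higher 68 (44.1%), 43 of the lower 116 (37.1%) and 305 of the 659 (46.3%). G at base 2 was in 10 of the higher 68 (14.7%), 28 of the lower 116 (24.1%) and 169 of the 659 (25.6%). C was the last base in 23 of the higher 68 (33.8%), in 56 of the lower 116 (48.3%) and in 193 of the 659 (29.3%). The median GC content was 41.4% in the higher 68, 44.8% in the lower 116 and 41.4% in the 659. The mean share is taken from the same 2 libraries, so a sequence can pass the minimum only through the library where it is high. The sizes and base shares of the classes thus depend on that choice. These counts describe sequences of 2 libraries, many of which share a start or an overlap, and no test was made.

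The sequences at both ends of this range are shown next, with the same capitals as before.

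highest ratio: TcattacatAggcatgattgacaagcctgT
next highest: AatatggttTtgagatgtttgtataagtC
then: TccaagatcAagatgcctgaggatttggA
lowest ratio: TgcgaaagaGacgggctggccctccccagC
next lowest: CgcgacctcAgatcagacgtggcgacccgC
then, among the lowest: GgctggtccGaaggtagtgagttatctcaA

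TcattacatAggcatgattgacaagcctgT had 16267 MARWI-IP reads and 33 total reads, a ratio of 47.1 (33.5 to 68.5). AatatggttTtgagatgtttgtataagtC had 13856 MARWI-IP and 79 total reads, a ratio of 16.8 (13.4 to 21.2). TccaagatcAagatgcctgaggatttggA had 16473 MARWI-IP and 94 total reads, a ratio of 16.7 (13.7 to 20.7). Reads 1 nt longer with the same first 29 nt as the last of these numbered 6132 in MARWI-IP against 255 in total small RNA.

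TgcgaaagaGacgggctggccctccccagC had 0 MARWI-IP reads and 1517 total reads. With 3 reads put in place of the 0, its share was 5291-fold lower in MARWI-IP, a ratio of 0.000189 (3.89e-05 to 0.000553). This value depends on the 3 reads assumed and is not an exact limit. CgcgacctcAgatcagacgtggcgacccgC had 10 MARWI-IP and 2772 total reads, a ratio of 0.000345 (0.000165 to 0.000635). GgctggtccGaaggtagtgagttatctcaA had 17 MARWI-IP and 1872 total reads, a ratio of 0.000868 (0.000505 to 0.00139). The last 2 have the first bases of human 28S rRNA and of human Y1 RNA, a small RNA of the Ro ribonucleoprotein, again from knowledge of those RNAs. Their GC contents were 70% and 50%.

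Related sequences did not always share a ratio. Among the 1000 most abundant sequences of each library, 508 in MARWI-IP against 516 in total small RNA had a relative in the same list. Of these, 295 in the MARWI-IP list and 276 in the total list shared their first 20 nt with another sequence. Overlaps of 20 nt or more with starts 1 to 9 nt apart were found for 322 in the MARWI-IP list and 320 in the total list. Differences at 1 to 3 of the first 29 bases were found for 39 in the MARWI-IP list and 72 in the total list. A sequence can be counted in more than 1 of these. Members of such groups may come from 1 precursor and are not independent of each other.

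Over the 451 pairs with shifted starts that could be used, the log2 ratios of the 2 members differed by a median of 0.86. In 249 pairs they differed by no more than 1, and in 101 by more than 2. Over the 56 pairs with 1 to 3 differing bases the median was 1.003, with 28 pairs at no more than 1 and 14 above 2. The upper quartiles were 1.92 for shifted and 2.07 for near-identical pairs. Differences between unrelated sequences were not computed, so whether relatives were more alike than other sequences was not tested. The 2 tRNA-Glu-TTC forms printed above differed by 0.226. A pair of each kind is shown, chosen after the values were seen, and each lies above the upper quartile of its kind. Capitals mark the bases by which the first of the shifted pair starts earlier, and the bases that differ in the near-identical pair.

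earlier start: TTGTtgaaaaggattctctcctctgcggc
later start: tgaaaaggattctctcctctgcggctgtt
near-identical, more abundant: tcttcattgaGtctgaagaCActccaaga
near-identical, less abundant: tcttcattgaCtctgaagaTGctccaaga

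The sequence with the earlier start had 13623 reads in MARWI-IP against 3715 in total small RNA, a ratio of 0.350, and the one that starts 4 nt later had 37769 MARWI-IP and 1378 total reads, a ratio of 2.62. These overlapping RNAs lay on opposite sides of 1. The more abundant near-identical sequence, which is rank 2 of total small RNA printed above, had a ratio of 0.601. The less abundant one had 21112 MARWI-IP and 16488 total reads, a ratio of 0.122, and the log2 ratios differed by 2.30. The 30 nt form of the more abundant one, 1 nt longer, had 23463 MARWI-IP and 1331 total reads, a ratio of 1.68.

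Set beside the other lengths that both lists hold, 24 to 28 and 31 to 33 nt, the 29 nt reads had the highest share of first U in both libraries, 91.5% in MARWI-IP against 88.7% in total small RNA. At 30 nt it was 90.2% of MARWI-IP and 86.9% of total reads, and at 32 nt 78.8% of MARWI-IP and 55.6% of total reads. The last base was A in 19.2% of MARWI-IP and 21.5% of total reads at 29 nt and in 15.02% of MARWI-IP and 15.3% of total reads at 30 nt. At 31 nt it was A in 10.5% of MARWI-IP and 10.6% of total reads. With 1 library of each kind these differences between lengths were not tested.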

How the data were processed

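Small RNA libraries of MARWI-IP and total small RNA were made with the NEBNext small RNA kit, per the labels' protocols. The authors deposited lists of distinct sequences with raw read counts, neither scaled nor placed on a genome. The MARWI-IP list holds 24 to 33 nt alone, and the full depth behind it is unknown. Whether its column pools the 2 replicates is not given in the sources used here. Bowtie, TopHat and Cufflinks are named without versions in the submitters' processing notes, and trimming, filters and genome build are not given there. The deposited RNA-seq table was not used here.

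Sequences of 29 and 30 nt were taken from both lists. From the counts were computed base shares by position, shares held by the most abundant sequences, the number of distinct sequences expected at equal depth (exact, without drawing), Spearman's rho and share ratios with exact binomial intervals at 95%. Sequences printed are the 5 most abundant of each library and the 3 highest and 3 lowest ratios at a mean share of 0.01%, and 1 sequence with its near copies is not reported here. The near-identical and shifted pair were added. The comparisons and lists were chosen with earlier results of these data known. Counting was tested on simulated reads. With no genome, loci were not assigned. Alternatives were single lengths, distinct sequences, removal of sequences read once or of leading sequences, and other minimum counts. Scripts ran under Python 3.11.15 with scipy 1.17.1, pandas 2.3.3 and numpy 2.4.6, and figures were drawn with matplotlib 3.10.9.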

Additional observations from a re-analysis of the deposited data

How the results depend on the processing

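Differences are MARWI-IP minus total, in percentage points of reads unless stated. The settings with equal depth, without 1000 leading sequences and with other minimum mean shares were chosen after seeing the data. The cause of the changes was not tested. The U1 difference of 3.07 was 2.84 at 29 nt, 3.29 at 30 nt, 2.09 without sequences read once, 2.05 and 1.65 without the 10 or 1000 most abundant of either library, 1.28 for distinct sequences at equal depth, and reversed to -1.14 for distinct sequences as deposited. The A10 difference of 0.692 reversed to -0.446 at 29 nt, -0.750 for distinct sequences and -0.942 at equal depth, and was 1.91 at 30 nt, 0.868 without sequences read once, and 1.71 and 0.170 without the 10 or 1000 most abundant. The last-base U difference of 3.95 was 7.18 at 29 nt, 0.541 at 30 nt, 4.14 without sequences read once, 1.201 and 1.69 without the 10 or 1000 most abundant, 1.98 for distinct sequences and 1.799 at equal depth. The top 100 difference of 9.26 was 10.6 at 29 nt, 8.76 at 30 nt, 8.34 without sequences read once, 4.43 without the 10 most abundant and 9.73 by 5′ end. Rank agreement of 0.553 was 0.625, 0.434 and 0.453 at minimums of 1, 100 and 1000 reads in each and 0.590 by 5′ end. The log2 ratio of the leading MARWI-IP sequence, 2.20, was 2.48 over 24 to 33 nt and 2.23 by 5′ end. At a mean share of 0.05% the share of sequences 4-fold higher was 15.5%, against 8.07% at 0.01%, and the share 4-fold lower was 10.7%, against 13.8%, so that more were higher than lower. The total library, read less deeply, limits ratios of rare sequences. No paired analysis was possible because each library is 1 column.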
